A study of Homo sapiens with 6 samples.

Results

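The ATP-binding cassette (ABC) family comprises membrane pumps and a few soluble proteins that share an ATP-hydrolysing domain. Its members were taken as the genes whose symbol is ABC, a letter from A to G and a number, among probe sets of the array that carry exactly 1 gene symbol. By this rule 47 probe sets of 43 genes were found among 18417 genes, 12 in subfamily A, 8 in B, 11 in C, 3 in D, 1 in E, 3 in F and 5 in G. Where a gene had several probe sets, the one used was chosen by its mean over all 6 arrays (the highest), which concerned ABCB8 and ABCF1, each with 3 probe sets. The contrast between treatments played no part in that rule.

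Human IMR90 primary lung fibroblasts were compared without treatment (3 control arrays) and after stimulation with recombinant human oncostatin M at 10 ng/mL (3 arrays). All samples are of this 1 cell line, and the sources used here do not give how long the treatment lasted. Levels are log2 values from RMA, a method that corrects background, normalises arrays against each other and summarises the probes of a probe set. A change is the log2 mean after oncostatin M minus that of control, with the standard error (SE) of the model; p-values come from limma and are Benjamini-Hochberg adjusted over all 18417 genes, with a threshold of 0.05. Nothing in the labels says that replicates were separate cultures, so the tests see only variation among these arrays, perhaps technical, and the number of arrays limits the precision.

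Most ABC pumps use ATP to move lipids, drugs, conjugated anions, peptides or haem compounds out of the cytosol or into an organelle. Subfamily A and part of G handle lipids and sterols, B holds drug, bile, peptide and mitochondrial carriers, C the multidrug resistance proteins and the sulfonylurea receptors, and D peroxisomal and lysosomal carriers. Members of E and F have no membrane part and act on ribosomes and translation. Oncostatin M, a relative of interleukin-6, acts on fibroblasts through a receptor that activates JAK kinases and STAT3.

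After oncostatin M, 4 of the 43 ABC genes were higher at an adjusted p under 0.05 (limma) and none was lower. They were ABCA1, the pump that passes cellular cholesterol and phospholipid to apolipoprotein A-I, and ABCC1, ABCC4 and ABCC5, exporters of conjugates, cyclic nucleotides and other organic anions. ABCA1 rose 1.88-fold and the C members between 1.39-fold and 1.44-fold. Among all genes, 1.72% were called higher and 1.7% lower. The family was chosen with earlier results of these data known, so these shares are given as description only. At an unadjusted p under 0.05, 8 ABC genes were higher and 1 was lower, against 918 and 1227 of all genes. The median change over the 43 genes was 0.038, beside 0.001 over all genes tested, and it ran from 0.015 (without oncostatin M replicate 1) to 0.050 (without control replicate 1) with single arrays left out.

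**Figure D1:**
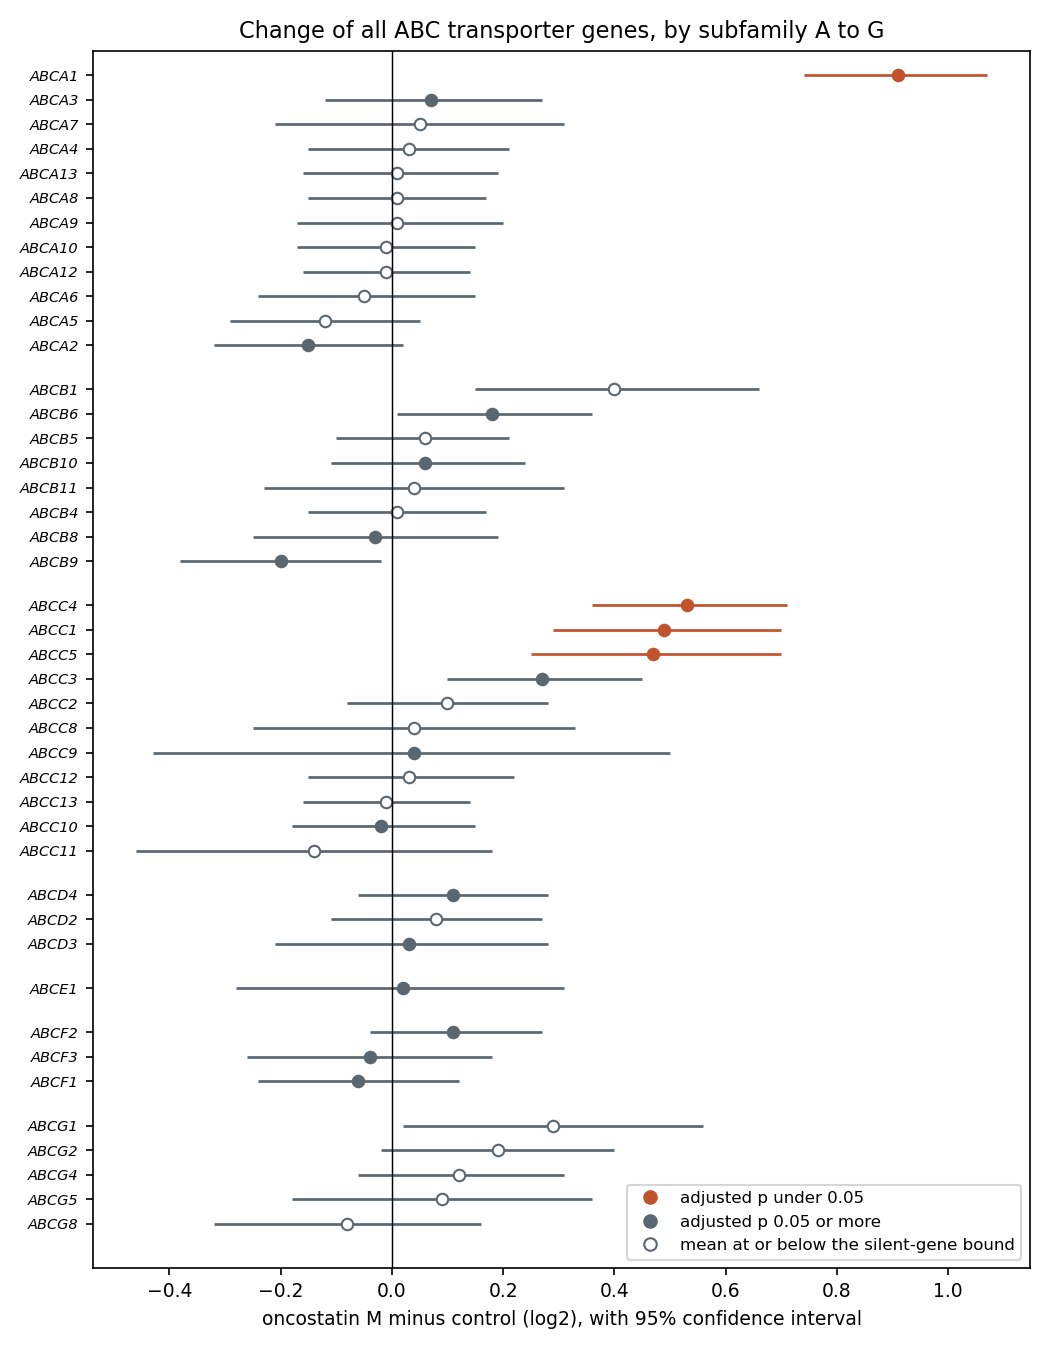
Change of each of the 43 ABC genes (points, oncostatin M minus control, log2) with its 95% confidence interval (lines), grouped by subfamily A to G from top to bottom and ordered by change. The 4 orange genes, ABCA1, ABCC4, ABCC1 and ABCC5, passed an adjusted p of 0.05. Open points have a mean at or below the silent-gene bound of 6.74, and most intervals of the other 39 genes span 0.

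To set levels against background, the means of 409 olfactory receptor and keratin-associated protein genes, which fibroblasts are not known to use, were taken as a guide. Their mean was 4.88 and the percentile of 95 was 6.74, called the silent-gene bound here. Of the 43 ABC genes, 19 had a mean above the bound and 24 did not: ABCA1, ABCA2 and ABCA3 of A lay above it, ABCB6, ABCB8, ABCB9 and ABCB10 of B, ABCC1, ABCC3, ABCC4, ABCC5, ABCC9 and ABCC10 of C, ABCD3 and ABCD4 of D, all of E and F, and none of G. All 4 genes called lay above it in both groups. A gene under the bound may still be expressed, since the probes of each gene respond differently.

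**Figure D2:**
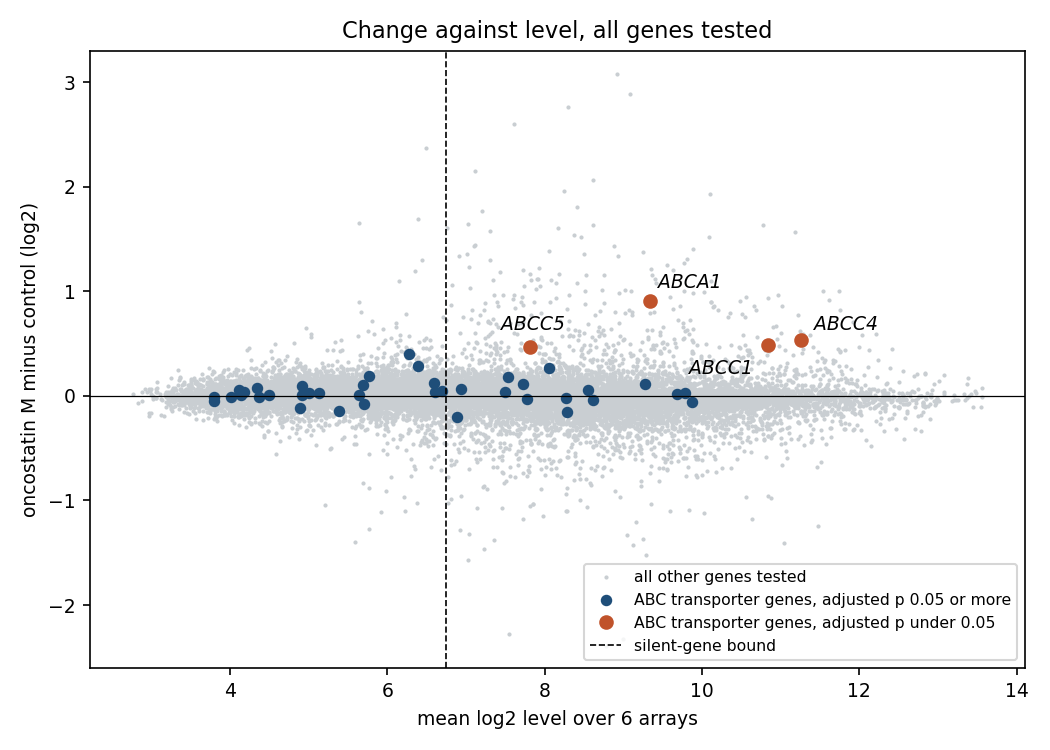
Change after oncostatin M (y axis, log2) against the mean log2 level over 6 arrays (x axis) for all 18417 genes (grey) and the 43 ABC genes (blue, or orange where called); the dashed line is the silent-gene bound of 6.74. The called genes sit to the right of the line, with ABCA1 at 0.91 and the C members between 0.47 and 0.53.

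All 12 fibroblast markers looked up lay above the bound, while EPCAM (mean 4.79), CDH1 (4.97), PECAM1 (4.84) and PTPRC (3.85), which define epithelial, endothelial and blood cells, lay below the bound. Other markers of those cells lay above the bound: 3 of 9 epithelial (KRT18 highest, mean 9.24), 2 of 6 endothelial (TEK highest, 8.80) and 3 of 6 leukocyte markers (CD68 highest, 10.66). By the mean over 6 arrays, fibroblast S100A4 and leukocyte CD14 were above the bound, but their control means of 6.7 and 6.39 were under it. The summed linear level of the 9 epithelial markers ran from 1150 to 1240 on control arrays and from 1550 to 1710 after oncostatin M, with KRT18 and MUC1 called higher. That of the 6 leukocyte markers ran from 1860 to 2100 and from 2150 to 2180, with CD14 called higher, and that of the 6 endothelial markers from 618 to 718 and from 711 to 956. The 5 smooth muscle markers summed to between 9990 and 11000 and to between 8430 and 9360, 4 of them above the bound and CNN1 called lower, and the 12 fibroblast markers to between 57800 and 61200 and to between 57200 and 62000, with PDGFRA and LUM called higher and PDGFRB lower. Their part in the results below was not tested, and in bulk RNA fewer cells of a type and less RNA per cell cannot be told apart. Array medians ran from 6.54 to 6.66, and the array of oncostatin M replicate 1 differed most from its group (root mean square deviation 0.132 over the ABC genes, against 0.0745 to 0.1 for the others).

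Subfamily A had 1 gene called of 12, ABCA1 (probe set 8162940). Control arrays gave 8.82, 8.95 and 8.89, and oncostatin M arrays gave 9.80, 9.84 and 9.74. The groups did not overlap, and the lowest treated array lay well above the highest control. The change was 0.91 (SE 0.07, 95% confidence interval 0.74 to 1.07, adjusted p = 0.000551, limma), the rise ranked 90 among 18417 genes. It remained called without any 1 array, with changes from 0.88 to 0.94 and adjusted p up to 0.0105.

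ABCA1 is a classic target of the liver X receptors (LXR), nuclear receptors for oxidised sterols that act with RXR. The bases before its RefSeq start site are shown because this gene had the largest change in the family (GRCh38.p14, chr9:104928156-104928405, minus strand, 5′ to 3′ as the gene reads). In capitals, from left to right, are 2 GC boxes, an E-box, another GC box and the LXR-type direct repeat, which reads on the opposite strand.
ABCA1: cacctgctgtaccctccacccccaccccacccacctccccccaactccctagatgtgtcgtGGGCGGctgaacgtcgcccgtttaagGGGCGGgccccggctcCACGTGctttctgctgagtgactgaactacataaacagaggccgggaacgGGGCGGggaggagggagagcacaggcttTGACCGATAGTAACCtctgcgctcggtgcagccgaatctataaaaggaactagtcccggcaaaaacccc
The LXR-type repeat starts at position -69 from the start site. It was found in 0.171% of all 35116 promoter windows of 300 bases (250 before the start site and 50 after it), and in no other of 34 ABC genes with a window. The GC box GGGCGG occurred in 45% of all windows and the E-box CACGTG in 7.26%. A match is a description of letters, with no test of binding.

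The other 11 members of subfamily A were not called, and their changes ran from -0.15 to 0.07. ABCA2, which handles lipids in late endosomes and lysosomes, gave 8.27, 8.36 and 8.43 in controls and 8.19, 8.18 and 8.25 after oncostatin M. All 3 treated values lay below the controls, with a change of -0.15 (interval -0.32 to 0.02, adjusted p = 0.524, limma). ABCA3, which loads surfactant lipids in the alveolar epithelium, had means of 6.89 ± 0.12 and 6.97 ± 0.06 (SD, n = 3 each), which overlapped. The retinal ABCA4, the epidermal ABCA12, ABCA13 and ABCA7 lay at or below the bound, with changes from -0.01 to 0.05. So did ABCA5, ABCA6, ABCA8, ABCA9 and ABCA10, neighbours in a tandem cluster on chromosome 17, with changes from -0.12 to 0.01. The median of subfamily A was 0.009 and changed sign with single arrays left out (-0.026 without control replicate 3 to 0.018 without control replicate 2), so it has no firm direction.

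Subfamily C held the other 3 calls among its 11 genes. ABCC4 (MRP4, probe set 7972297) exports cyclic nucleotides and prostaglandins. It measured 10.98, 11.04 and 10.95 in controls and 11.60, 11.55 and 11.42 after oncostatin M. The groups did not overlap, and the change was 0.53 (SE 0.08, adjusted p = 0.00737, limma). Without control replicate 1 the change stayed at 0.53, but the adjusted p was 0.0581.

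ABCC1 (MRP1, probe set 7993478) exports glutathione conjugates, leukotrienes among them. Values were 10.50, 10.58 and 10.71 in controls and 11.05, 11.00 and 11.21 after oncostatin M, so every treated array was above every control. It rose by 0.49 (SE 0.09, adjusted p = 0.0229, limma). The call was lost without control replicate 1 (adjusted p = 0.13), control replicate 2 (0.106) or oncostatin M replicate 3 (0.0789), with changes between 0.43 and 0.55 over the 6 fits, and when every probe set was tested on its own (0.0688).

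ABCC5 (MRP5, probe set 8092418), an exporter of cyclic GMP and haem, gave 7.45, 7.53 and 7.73 in controls. After oncostatin M it gave 7.98, 7.99 and 8.17, again without overlap. The rise was 0.47 (SE 0.10, adjusted p = 0.0394, limma), the closest of the 4 calls to the threshold. It was lost without control replicate 1 (0.19), control replicate 2 (0.162), oncostatin M replicate 2 (0.0856) or oncostatin M replicate 3 (0.128), with arrays centred on their medians (0.0774) and when every probe set was tested on its own (0.109).

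**Figure D3:**
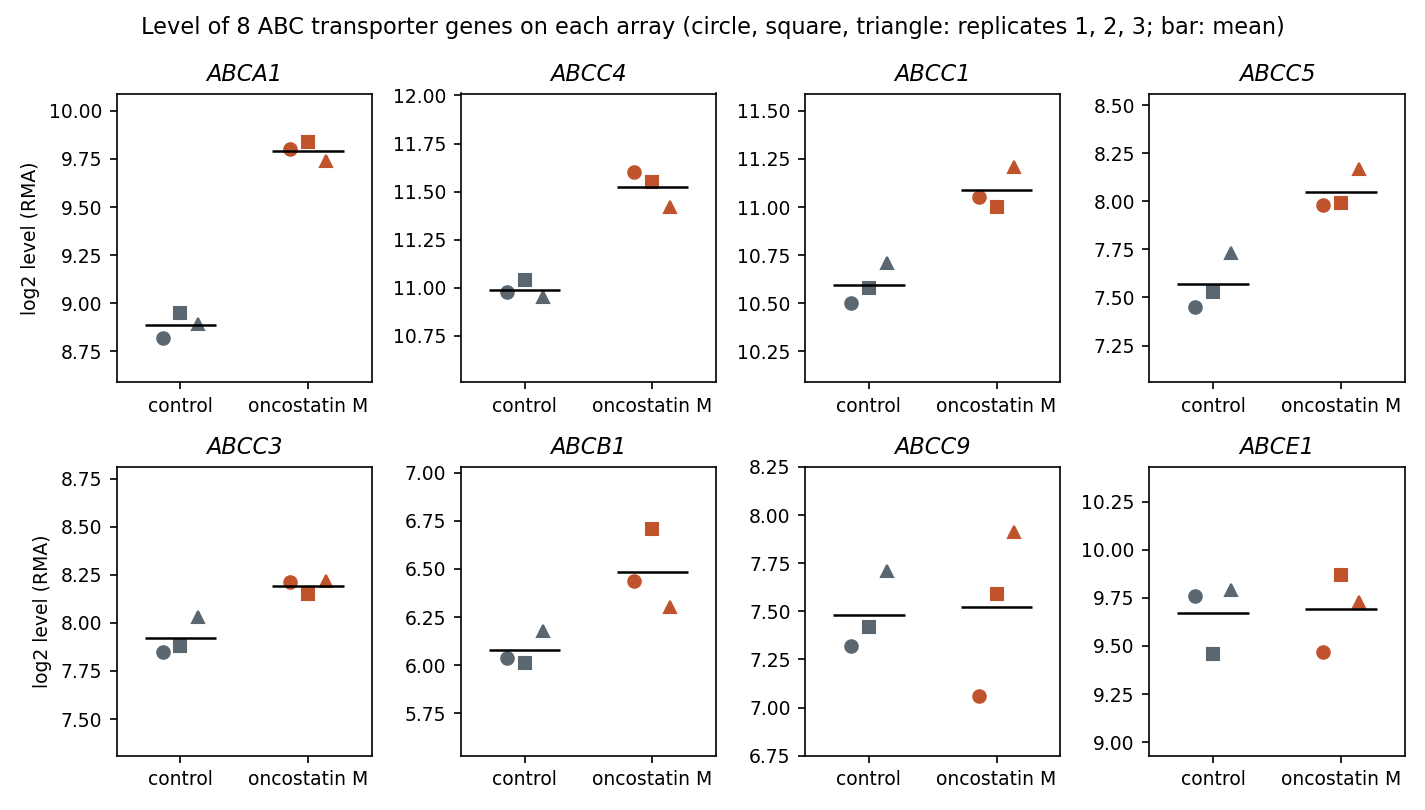
Log2 level of 8 ABC genes on each array (y axis, with the same log2 span in each panel), control in grey and oncostatin M in orange; symbols mark replicates 1 to 3 and bars the group means. In ABCA1, ABCC4, ABCC1, ABCC5, ABCC3 and ABCB1 the groups do not overlap, while ABCC9 and ABCE1 show overlapping groups.

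RefSeq windows were at hand for 3 of the 4 called genes, all but ABCC1, and those of ABCC4 and ABCC5 are shown here. They are the 250 bases before the start site in GRCh38.p14, chr13:95301452-95301701 for ABCC4 and chr3:184017885-184018134 for ABCC5, both on the minus strand. Capitals mark the antioxidant response core TGACNNNGC, read on the opposite strand, in ABCC4, and a GC box on the opposite strand followed by the STAT palindrome TTCNNNGAA in ABCC5.
ABCC4: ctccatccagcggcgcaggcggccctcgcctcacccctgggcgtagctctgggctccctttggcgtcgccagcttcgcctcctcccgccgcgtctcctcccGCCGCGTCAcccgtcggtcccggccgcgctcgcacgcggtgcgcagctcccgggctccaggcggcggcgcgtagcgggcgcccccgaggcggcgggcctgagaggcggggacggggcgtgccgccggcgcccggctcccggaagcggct
ABCC5: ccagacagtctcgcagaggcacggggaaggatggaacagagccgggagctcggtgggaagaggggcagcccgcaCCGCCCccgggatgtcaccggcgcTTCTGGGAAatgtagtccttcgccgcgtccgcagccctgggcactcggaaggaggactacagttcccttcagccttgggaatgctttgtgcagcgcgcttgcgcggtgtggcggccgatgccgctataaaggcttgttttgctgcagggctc
The 3 promoters shared no motif beyond the GC box, which ABCA1 and ABCC5 both hold. The antioxidant response core was in 13.3% of all 35116 windows and in 12 of the 51 windows of ABC genes (23.5%), and the STAT palindrome in 7.66% and in 2 of 51 (3.92%), ABCC5 and ABCG2. The AP-1 motif TGANTCA was in 7.71% of all windows and in 6 of 51 (11.8%), none of a called gene. The E-box was in 7.26% of all windows and in 9 of 51 (17.6%), and the GC box in 45% and in 25 of 51 (49%). Some genes have several windows, and those of a gene can overlap, as in ABCG2. Differences between these shares were not tested. Each motif was searched on both strands, and no 2 matches overlapped in the 3 promoters shown.

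ABCC3 (MRP3), which exports glucuronides and bile acids, went from 7.85, 7.88 and 8.03 to 8.21, 8.15 and 8.22. These groups did not overlap either, but the change of 0.27 (interval 0.10 to 0.45) had an adjusted p of 0.129 (limma). It passed with array weights, where oncostatin M replicate 1 had a weight of 0.226 (change 0.30, adjusted p = 0.0209). ABCC2, the canalicular export pump of the liver, lay under the bound with means of 5.64 and 5.75.

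The remaining C genes were not called. ABCC10, a carrier of lipophilic drugs, differed by -0.02, with means of 8.28 ± 0.07 and 8.26 ± 0.05. ABCC9, the sulfonylurea receptor of vascular potassium channels, read 7.32, 7.42 and 7.71 in controls and 7.06, 7.59 and 7.91 after oncostatin M. Its lowest value was on oncostatin M replicate 1 and its interval ran from -0.43 to 0.50. ABCC8, the receptor of the pancreatic channel, ABCC11, ABCC12 and ABCC13, which RefSeq lists as a transcribed pseudogene, lay at or below the bound with changes from -0.14 to 0.04. The median of subfamily C was 0.041 over its 11 genes, from 0.014 without control replicate 1 to 0.129 without oncostatin M replicate 1.

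Taken by role, 10 genes of drug and organic anion efflux from subfamilies B, C and G were measured. Of these, ABCC1, ABCC4 and ABCC5, the same 3 calls given above, were higher, beside 1.72% of all genes, and none was lower. The median change was 0.231, beside 0.001 over all genes, in a list chosen with earlier results of these data known. At an unadjusted p under 0.05, 5 were higher and none lower, beside 918 and 1227 of 18417 genes. ABCB1 (P-glycoprotein), the best known drug efflux pump, had the largest change of subfamily B. It read 6.04, 6.01 and 6.18 in controls and 6.44, 6.71 and 6.30 after oncostatin M, without overlap. The change of 0.40 (interval 0.15 to 0.66) did not pass (adjusted p = 0.127, limma), and both means lay under the bound, so its size is uncertain. ABCB4, its neighbour on chromosome 7 and the phosphatidylcholine floppase of bile, differed by 0.01 (interval -0.15 to 0.17). ABCG2 (BCRP) measured 5.59, 5.63 and 5.82 in controls and 5.76, 5.90 and 5.95 after oncostatin M, with overlap and an adjusted p of 0.509.

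No other gene of subfamily B was called. ABCB6, a porphyrin carrier, differed by 0.18 (7.38, 7.54 and 7.38 against 7.57, 7.63 and 7.66; adjusted p = 0.392, limma). ABCB9, which carries peptides into lysosomes, differed by -0.20 (6.91, 7.01 and 7.05 against 6.73, 6.88 and 6.76; adjusted p = 0.327). It was the ABC gene with the largest change below 0, and its groups did not overlap. The mitochondrial ABCB10 gave 8.41, 8.58 and 8.55 in controls and 8.65, 8.56 and 8.53 after oncostatin M (8.51 ± 0.09 and 8.58 ± 0.06). ABCB8, also mitochondrial, differed by -0.03 on the probe set used and by 0.09 and -0.01 on its others. ABCB5 and the bile salt pump ABCB11 lay under the bound, with changes of 0.06 and 0.04.

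In subfamily D, ABCD3, a carrier of the peroxisomal membrane, gave 9.80, 9.58 and 9.91 in controls and 9.66, 9.84 and 9.90 after oncostatin M. ABCD4, which takes part in lysosomal export of vitamin B12, had the largest change there, 0.11 (interval -0.06 to 0.28), from 7.64, 7.71 and 7.69 to 7.88, 7.77 and 7.71. Its treated values reached down to the control range. ABCD2, a peroxisomal carrier of fatty acids, was under the bound and differed by 0.08.

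The soluble members showed small differences. ABCE1, which splits ribosomes after termination, read 9.76, 9.46 and 9.79 in controls and 9.47, 9.87 and 9.73 after oncostatin M, 2 ranges that largely cover each other. ABCF1, which acts in translation initiation, gave 9.83, 9.99 and 9.88 against 9.88, 9.75 and 9.88, with the same values on its 3 probe sets. ABCF2 differed by 0.11 (9.18, 9.24 and 9.23 against 9.36, 9.31 and 9.33; adjusted p = 0.638, limma), with groups that did not overlap, and ABCF3 by -0.04.

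All 5 G genes lay at or below the bound. ABCG1, which passes cholesterol to high-density lipoprotein and is like ABCA1 a known LXR target, measured 6.40, 6.27 and 6.06 in controls and 6.66, 6.59 and 6.35 after oncostatin M. Oncostatin M replicate 3 lay within the control range, and the change of 0.29 (interval 0.02 to 0.56) had an adjusted p of 0.368 (limma). ABCG4, its close relative, gave 6.56, 6.57 and 6.46 against 6.77, 6.58 and 6.61, a change of 0.12. ABCG5 and ABCG8, the paired sterol exporters of gut and liver, differed by 0.09 and -0.08. The median of subfamily G was 0.124, from 0.066 without oncostatin M replicate 1 to 0.160 without oncostatin M replicate 2. That of B was 0.049, from 0.010 without control replicate 1 to 0.071 without control replicate 2. That of D was 0.081, from 0.046 without control replicate 2 to 0.120 without oncostatin M replicate 3. That of F was -0.039, from -0.087 without oncostatin M replicate 3 to 0.027 without oncostatin M replicate 1.

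Across the family, groups did not overlap in 13 of 43 genes, 10 higher and 3 lower after oncostatin M (ABCA2, ABCA5 and ABCB9), against 18% of all genes, of which 1369 were higher and 1948 lower. For the 39 genes not called, 95% confidence intervals reached no higher than 0.66 (ABCB1) and no lower than -0.46 (ABCC11). A p above the threshold does not show that these genes did not differ.

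Genes linked to the family in its pathways were drawn from lists outside it. These lists were chosen with earlier results of these data known, so the counts below do not test them. Of 50 measured, 7 were called higher and none lower (limma), beside 1.72% and 1.7% of all genes. With array weights 15 were called higher and 1 lower, beside 667 and 610 of all 18417 genes, and without control replicate 1 or control replicate 2 the higher calls were 4. Of 13 nuclear receptors and factors known to control ABC genes, 2 were higher. NFE2L2 (NRF2), the regulator of antioxidant genes, rose from 10.35, 10.18 and 10.29 to 11.02, 11.21 and 11.06 (change 0.82, adjusted p = 0.0015). HIF1A rose by 0.45 (adjusted p = 0.0323), and its call was lost in 5 of 6 fits that left out 1 array, all but that without oncostatin M replicate 1, with adjusted p up to 0.129, with arrays centred on their medians (0.0804) and when every probe set was tested on its own (0.0913). The LXR gene NR1H3 was under the bound and differed by 0.15. NR1H2, the other LXR gene, was listed but was not among the 13 measured, so its level is not known here. The LXR partner RXRA differed by 0.22 (adjusted p = 0.306, limma).

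Of 9 other genes known as LXR targets, LPCAT3 and SMPDL3A were higher and none was lower, beside 1.72% and 1.7% of all genes. This list too was chosen with earlier results of these data known. LPCAT3, a lysophospholipid acyltransferase, rose from 10.06, 10.05 and 10.24 to 10.86, 10.93 and 10.90 (change 0.78, adjusted p = 0.00143, limma). SMPDL3A, a phosphodiesterase, rose by 0.50 (adjusted p = 0.0145), a call lost without control replicate 1 (0.0957), control replicate 2 (0.0809) or oncostatin M replicate 2 (0.0537). MYLIP differed by 0.23 (adjusted p = 0.254, limma), SREBF1 by 0.09, APOE by 0.07, SCD by 0.01 and PLTP by -0.02. LPL and NR1H3, both under the bound, differed by 0.04 and 0.15, and none of these passed the threshold.

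**Figure D4:**
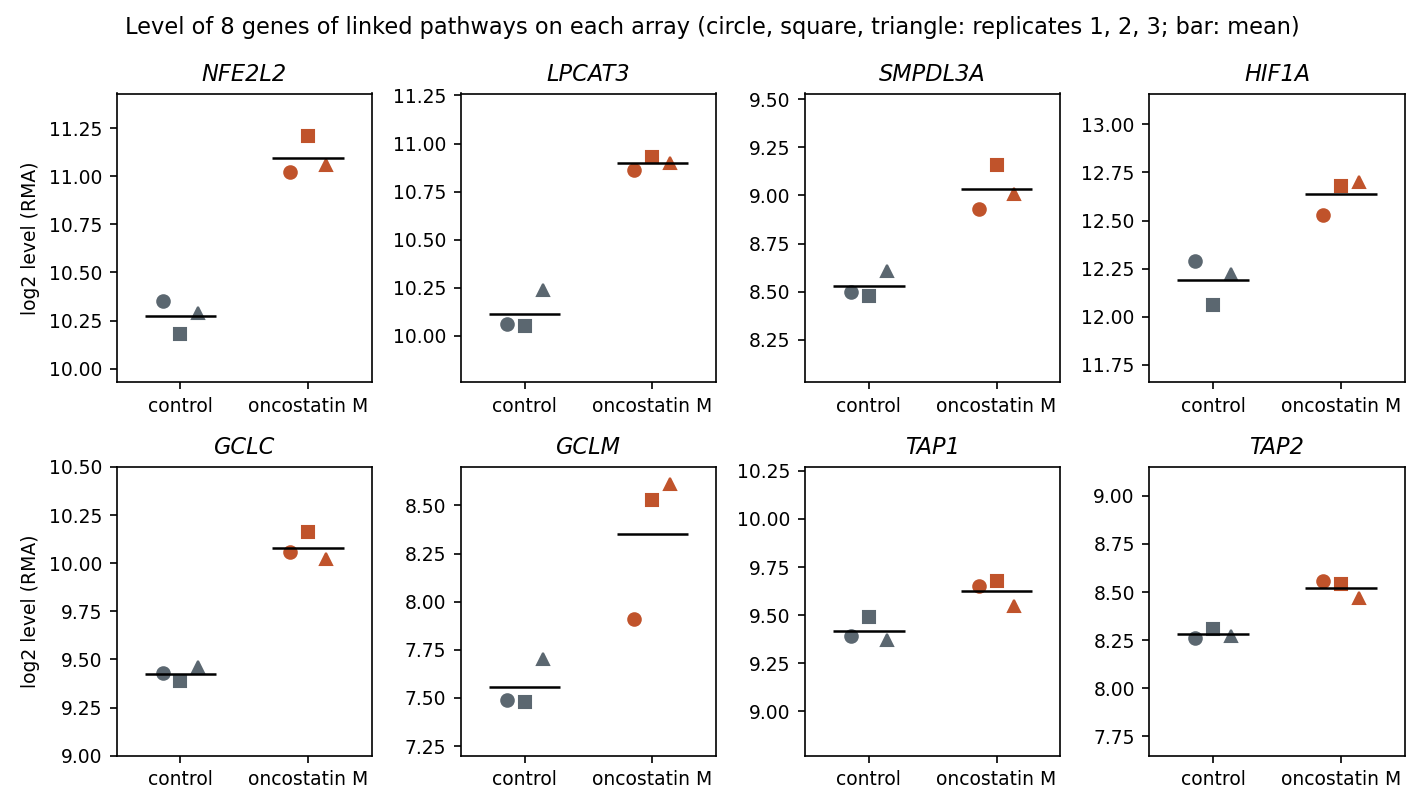
Log2 level of 8 genes outside the family on each array (y axis, with the same log2 span in each panel), control in grey and oncostatin M in orange; symbols mark replicates 1 to 3 and bars the group means. NFE2L2, LPCAT3, SMPDL3A, HIF1A and GCLC were called higher, and GCLM, TAP1 and TAP2 were not; on GCLM the array of oncostatin M replicate 1 lies apart from the other treated arrays.

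Glutathione is carried out by several C members or used in the conjugates they export. Of 9 genes of its supply and use, 2 were higher and none lower, beside 1.72% and 1.7% of all genes. Their median change was 0.277, beside 0.001 over all genes, in a list chosen with earlier results of these data known. GCLC, the catalytic subunit of glutamate-cysteine ligase, went from 9.43, 9.39 and 9.46 to 10.06, 10.16 and 10.02 (change 0.66, adjusted p = 0.00215, limma). SLC7A11, the cystine importer, rose by 0.92 (adjusted p = 0.0112), a call lost without control replicate 1 (0.0859) or control replicate 2 (0.052). GCLM, the modifier subunit, named after its values were seen, read 7.49, 7.48 and 7.70 against 7.91, 8.53 and 8.61 (change 0.79, adjusted p = 0.0512, limma). It passed under quantile normalization (0.0431), with the mean of a gene's probe sets (0.0496), above the median level (0.0298), above the silent-gene bound (0.0371), with eBayes using trend and robust (0.0255) and with array weights (0.000252). Of the 6 fits that left out 1 array it passed in 1, without oncostatin M replicate 1 (change 1.01, adjusted p = 0.000473).

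Among 11 organic anion uptake carriers, 1 was higher and none lower, beside 1.72% and 1.7% of all genes. It was the prostaglandin importer SLCO2A1, which takes up substrates that ABCC4 exports (change 3.08, adjusted p = 2.29e-06, limma). The list of carriers was also chosen with earlier results of these data known. None of 8 partners of ABC proteins, among them APOA1, APOE and the channel subunit KCNJ8, was called, and at an unadjusted p under 0.05 none was past the threshold either. TAP1 and TAP2, ABC peptide pumps that load class I molecules, and the chloride channel CFTR bear other symbols and so fall outside the rule. TAP1 gave 9.39, 9.49 and 9.37 against 9.65, 9.68 and 9.55, and TAP2 gave 8.26, 8.31 and 8.27 against 8.56, 8.54 and 8.47. Both had groups that did not overlap and neither passed (changes 0.21 and 0.25, adjusted p = 0.253 and 0.122). CFTR lay under the bound (change 0.34, adjusted p = 0.0881).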

How the data were processed

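RNA of 6 samples was purified on RNeasy columns and labelled with an Ambion whole-transcript kit, per the labels' protocols. The deposited log2 values were produced by the authors using RMA (Affymetrix Expression Console 1.1, as the submitters' processing notes state, without settings), and the scale was judged from the values. RMA tends to shrink differences at low intensity, and a level is relative to the rest of its array. The sources used here give no genome build.

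Of 33297 probe sets, the platform's gene table gave 1 symbol for 19460, several for 1754 and none for 12083. One probe set per gene was fitted, with no filter on dim genes, with R 4.3.3 and limma 3.58.1 (eBayes after lmFit, group as the only term, two-sided). The model was run on simulated data with independent normal noise for each gene. Deviations shared by the genes of an array were not simulated, so that run does not cover them. Groups and replicate numbers came from the labels. The members and gene lists were chosen with earlier results of these data known. By rule, values by array are given for the ABC genes called, those with the largest change or highest mean of a subfamily and the 10 largest changes above the bound; other members were named after their values were seen. Promoters are RefSeq windows of GRCh38.p14, matched by symbol for 34 of 43 genes. ABCA4, ABCA8, ABCB4, ABCB5, ABCC1, ABCC13, ABCC3, ABCC8 and ABCG1 had no window in that table. Figures were drawn with matplotlib 3.10.9. Alternatives covered scaling between arrays, probe set choice, dim-gene filters, array weights, the variance prior, single arrays left out, a replicate block and a threshold of 0.01.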

Additional observations from a re-analysis of the deposited data

How the results depend on the processing

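Of 265 pairs of a named ABC gene and an alternative, 251 kept their side of the threshold, 13 lost the call (all of ABCC1, ABCC4 or ABCC5), 1 gained it (ABCC3 with array weights), and none changed sign past the threshold. On changes rounded to 2 decimals, the sign changed in 4 of the 251, of ABCE1 and ABCD3, neither of them called. ABCE1 without oncostatin M replicate 3, at -0.001, is not among these 4. The 4 higher calls fell to 2 (ABCA1 and ABCC4) when every probe set was tested on its own and at the threshold of 0.01, and ran from 1 to 4 with single arrays left out; the lowest was without control replicate 1, which left ABCA1, and 2 were left without control replicate 2 or oncostatin M replicate 3. No ABC gene was called lower under any alternative. Over all genes, 175 higher and 112 lower calls were left at the threshold of 0.01, 667 and 610 came with array weights, and from 156 to 400 and from 105 to 332 with single arrays left out. Genes of linked pathways called higher numbered 4 at the threshold of 0.01 and 15 with array weights, with 1 lower there, and from 4 to 8 with single arrays left out.

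The median of subfamily A was 0.379 among genes above the median level, where only ABCA1 (0.91) and ABCA2 (-0.15) were tested. Among those above the silent-gene bound, where ABCA3 was tested as well, it was 0.073. With all members tested, the median of A ran from -0.026 to 0.018 with single arrays left out. It was -0.001 under quantile normalization and with arrays centred on their medians. That of subfamily C was 0.374 under both filters, where fewer members were tested. It was 0.184 with array weights and from 0.014 to 0.129 with single arrays left out. That of subfamily F was 0.089 with array weights and from -0.087 to 0.027 with single arrays left out. The cause was not tested where the alternative changed no set of genes or samples. That of E, which is ABCE1 alone, was 0.019 and ran from -0.088 to 0.130 with single arrays left out.

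Deviations of arrays with the same replicate number correlated at 0.0635, -0.456 and 0.511, and those with different numbers from -0.605 to 0.543. With 3 arrays per group, each taken from its group mean, these values cannot show whether the numbers pair the samples. With the replicate block, 4 ABC genes were called higher and none lower, with 255 and 223 calls over all genes, and the median change of the ABC genes was 0.038. Of the pathway genes 6 were called higher and none lower, with HIF1A (adjusted p = 0.101, limma) and SMPDL3A (0.0508) not called and GCLM called (0.0484). Levels at or below the silent-gene bound limit what can be said of 24 of the 43 genes.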
